A study of Homo sapiens with 6 samples.

Results

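Translation initiation and elongation factors were examined in RS4;11 cells. RS4;11 is an established human cell line grown from a B-cell precursor leukemia (acute lymphoblastic) with a KMT2A fusion. The members are the genes whose symbol starts with EIF or EEF and a number, without the eIF2 kinases (EIF2AK) and the eIF4E-binding proteins (EIF4EBP). The rule found 53 of the 11911 genes in the table, of which 51 are annotated as protein-coding genes, and all 53 passed the filter on low values. RNA was sequenced from asparagine-depleted RS4;11 cells (3 libraries) and from RS4;11 cells with asparagine (3 libraries), with 16 hours given as the time since asparagine was removed. The cells carry no engineered allele in the labels. The same asparagine-free medium with dialyzed serum is entered for every sample, so the medium of the cells with asparagine is not fully described. The column names of the depleted arm could abbreviate asparaginase, while the sample titles speak only of asparagine. Nothing in the labels says that the libraries of a group came from separate cultures, so the p-values cover only how these libraries differ among themselves, and that spread may be technical. In bulk RNA, fewer cells of a type and less RNA per cell cannot be told apart.

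Initiation factors bring the small ribosomal subunit, the initiator tRNA and the mRNA together. eIF2 delivers the initiator tRNA and eIF2B recharges eIF2 with GTP. When an amino acid is short, the kinase GCN2 phosphorylates eIF2, which then blocks eIF2B and lowers general protein synthesis. The eIF4 factors bind the cap and unwind the mRNA, eIF3 is the scaffold on the small subunit, eIF1 and eIF1A guard start-codon choice, and eIF5 and eIF5B complete the joining of the subunits. The eEF1 and eEF2 factors then carry aminoacyl-tRNA to the ribosome and move it along the mRNA.

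The 4 stretches of DNA upstream of member genes shown here are those of EIF1 and EIF1B, which were higher in depleted cells, and of EIF4G1 and EIF5A, which were lower. They were taken from RefSeq (GRCh38.p14, plus strand in all 4 cases), up to the base before the first annotated base of the gene in GENCODE 29, and each reads 5′ to 3′. Capitals mark the E-box CACGTG, a motif bound by MYC and related factors, which is the same on both strands.
EIF1 (chr17:41688635-41688884): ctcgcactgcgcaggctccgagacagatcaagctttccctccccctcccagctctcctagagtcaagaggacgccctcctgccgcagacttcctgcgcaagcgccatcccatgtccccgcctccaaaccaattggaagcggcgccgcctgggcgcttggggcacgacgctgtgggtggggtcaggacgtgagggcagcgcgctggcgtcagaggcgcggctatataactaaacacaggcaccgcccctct
EIF1B (chr3:40309457-40309683): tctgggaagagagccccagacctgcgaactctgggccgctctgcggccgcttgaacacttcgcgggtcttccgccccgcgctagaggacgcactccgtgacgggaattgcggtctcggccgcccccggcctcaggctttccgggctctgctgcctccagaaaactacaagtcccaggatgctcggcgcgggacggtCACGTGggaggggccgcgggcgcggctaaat
EIF4G1 (chr3:184314356-184314494): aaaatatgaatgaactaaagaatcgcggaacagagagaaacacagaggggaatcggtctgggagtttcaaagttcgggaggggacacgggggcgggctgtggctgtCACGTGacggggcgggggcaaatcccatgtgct
EIF5A (chr17:7306749-7306998): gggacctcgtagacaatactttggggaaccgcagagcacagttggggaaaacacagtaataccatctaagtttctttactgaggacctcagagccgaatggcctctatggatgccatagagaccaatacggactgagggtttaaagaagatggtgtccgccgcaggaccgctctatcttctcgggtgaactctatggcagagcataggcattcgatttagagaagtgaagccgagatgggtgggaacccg

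A RefSeq promoter was matched by symbol for 42 of the 53 members, and the 250 bases before the start were searched on both strands. The E-box CACGTG was found in 10 of 42 member promoters (23.8%), against 9.20% of 8972 promoters of the genes tested here and 6.49% of all 27305 promoters. The 10 were those of EIF1B, EIF2B3, EIF3F, EIF3K, EIF4A3, EIF4B, EIF4E, EIF4G1, EIF4H and EEF2K. By direction of change, 6 of 16 promoters of members that were lower held it, 1 of 5 of members that were higher, and 3 of 21 of members that were not called. No such split was made over all genes tested, and a link between the E-box and the direction was not tested. The element TGATGNAA, a core of the sites bound by C/EBP and ATF factors in amino acid response genes, was found in 0 of 42 member promoters, against 1.38% of the promoters of genes tested. A match describes letters, not binding. EIF4G1 and EIF4E each held 2 E-boxes, and the second E-box of EIF4G1 lies beyond the stretch printed here.

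The values corresponded to 29971364 to 40577308 reads per depleted library and to 36611101 to 51127073 reads per library with asparagine. All 9 B-cell precursor markers used, such as PAX5 and EBF1, were in the table, with summed levels of 2902 to 3706 CPM in depleted libraries and 3795 to 4034 CPM in libraries with asparagine, and 0 of 4 T-cell and 0 of 3 erythroid markers were. The 3 markers of KMT2A-rearranged leukemia summed to 270 to 332 CPM in depleted libraries and 588 to 667 CPM with asparagine, and they differed in direction. CSPG4 had 44.7 to 87.9 CPM in depleted libraries and 389 to 470 CPM with asparagine. MEIS1 had 172 to 215 CPM in depleted libraries and 138 to 147 CPM with asparagine. HOXA9 overlapped, at 23.8 to 73.0 CPM in depleted libraries and 52.1 to 59.2 CPM with asparagine. Of 4 myeloid markers only CSF1R was in the table (16.0 to 28.9 CPM depleted, 30.4 to 31.4 CPM with asparagine), and of 2 fibroblast markers only COL1A1 (0.938 to 2.35 CPM depleted, 3.61 to 4.47 CPM with asparagine). Whether these marker levels play a part in the members' changes was not tested. The B-cell precursor markers differed in direction. PAX5 had 1257 to 1460 CPM in depleted libraries and 998 to 1016 CPM with asparagine, while VPREB1 had 94.1 to 170 CPM in depleted libraries and 420 to 455 CPM with asparagine. IGLL1 had 171 to 418 CPM in depleted libraries and 780 to 920 CPM with asparagine, and DNTT was low at 1.60 to 1.69 CPM in depleted libraries and 3.09 to 4.22 CPM with asparagine. Depleted libraries 2 and 3 were alike and depleted library 1 differed from them, in a way that varied with transcript GC content. Over the 52 members with a GC value, Pearson's r between GC content and the log2 change was -0.19 in depleted library 1, -0.63 in depleted library 2 and -0.64 in depleted library 3. Over all 11344 genes tested that have a GC value, it was -0.043, -0.58 and -0.60 in the same order. These r describe genes that share libraries, and no test was made. Values after a GC correction, and without depleted library 1, are therefore given beside many of the changes.

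**Figure D1:**
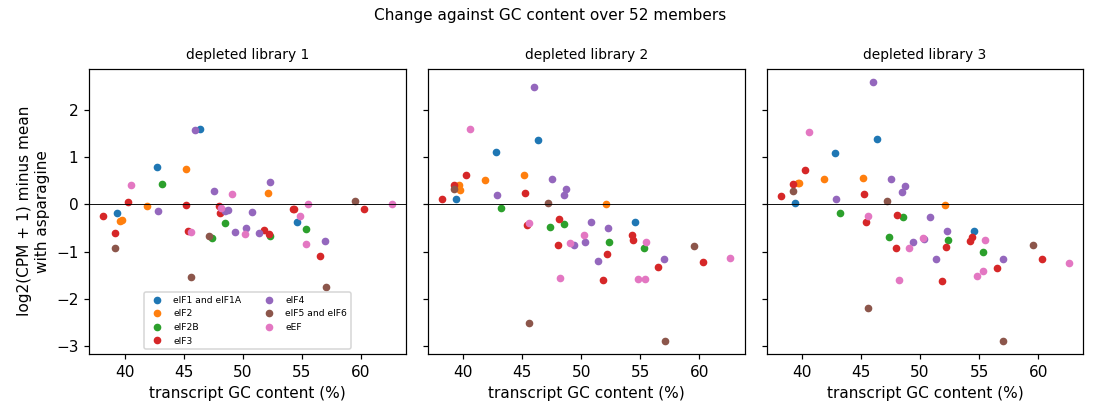
Change of 52 members against the GC content of their transcripts, 1 panel for each depleted library. The x axis is GC content in percent, the y axis is log2(CPM + 1) minus the mean of the libraries with asparagine, and colors mark the factor groups. The points slope downward in libraries 2 and 3 (r of -0.63 and -0.64) and scatter without a clear slope in library 1 (r of -0.19).

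Across the members, 7 were higher and 19 lower in depleted cells, by limma with p-values adjusted by Benjamini-Hochberg over all 11892 genes tested and a threshold of 0.05. These are 13.2% and 35.8% of the members, against 25.1% of all genes tested called higher and 26.2% called lower. The share called in either direction, 49.1%, lay near the background of 51.3%, so the members did not stand out in how many were called, and more of the calls were downward. The median log2 fold change of the members was -0.41, against 0.01 over all genes tested. By depleted library, the median of the members was -0.18, -0.40 and -0.37 in libraries 1, 2 and 3. Of the calls, 3 upward and 7 downward ones were at least 2-fold on the log2(CPM + 1) scale, where 10.7% and 11.3% of all genes tested were.

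The count depended on the libraries. Without depleted library 1 there were 14 higher and 31 lower members (background 40.5% and 41.3%, or 81.8% in either direction), including all 26 called with all libraries. The 7 added upward were EIF2S1, EIF2S3, EIF2A, EIF3E, EIF3J, EIF4A2 and EIF4G2, and the 12 added downward were EIF3G, EIF3I, EIF3K, EIF3L, EIF3IP1, EIF4ENIF1, EIF4H, EIF6, EEF1A1, EEF1B2, EEF1D and EEF2. Without 1 of the other 5 libraries there were 4 or 5 higher and 12 to 15 lower. Over all 11892 genes tested the calls fell as well, to 1728 to 2067 higher and 1814 to 2177 lower. With all libraries these were 2987 and 3116. After the GC correction 7 members were higher and 32 lower (background 35.2% and 34.3%, or 69.5% in either direction), among the 52 with a GC value. Of the 26 calls, 15 were kept in every alternative in which the gene was tested, 3 of them upward and 12 downward. The upward ones were EIF1, EIF1B and EIF4E3, the last of which passed the filter on low values only through the depleted libraries. The 12 include both EIF5A and EIF5AL1, whose reads cannot be cleanly separated. The fit with depleted library 1 as the only depleted library is not among these alternatives. No such count is given for all genes called, so whether the members kept their calls unusually often was not tested. Relative to the range with asparagine, 24 members lay below it in all 3 depleted libraries and 7 above it in all 3. The groups did not overlap for these 31 members (58.5%), against 61.1% of all genes tested. The other 22 members had depleted libraries on different sides of that range or within it.

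**Figure D2:**
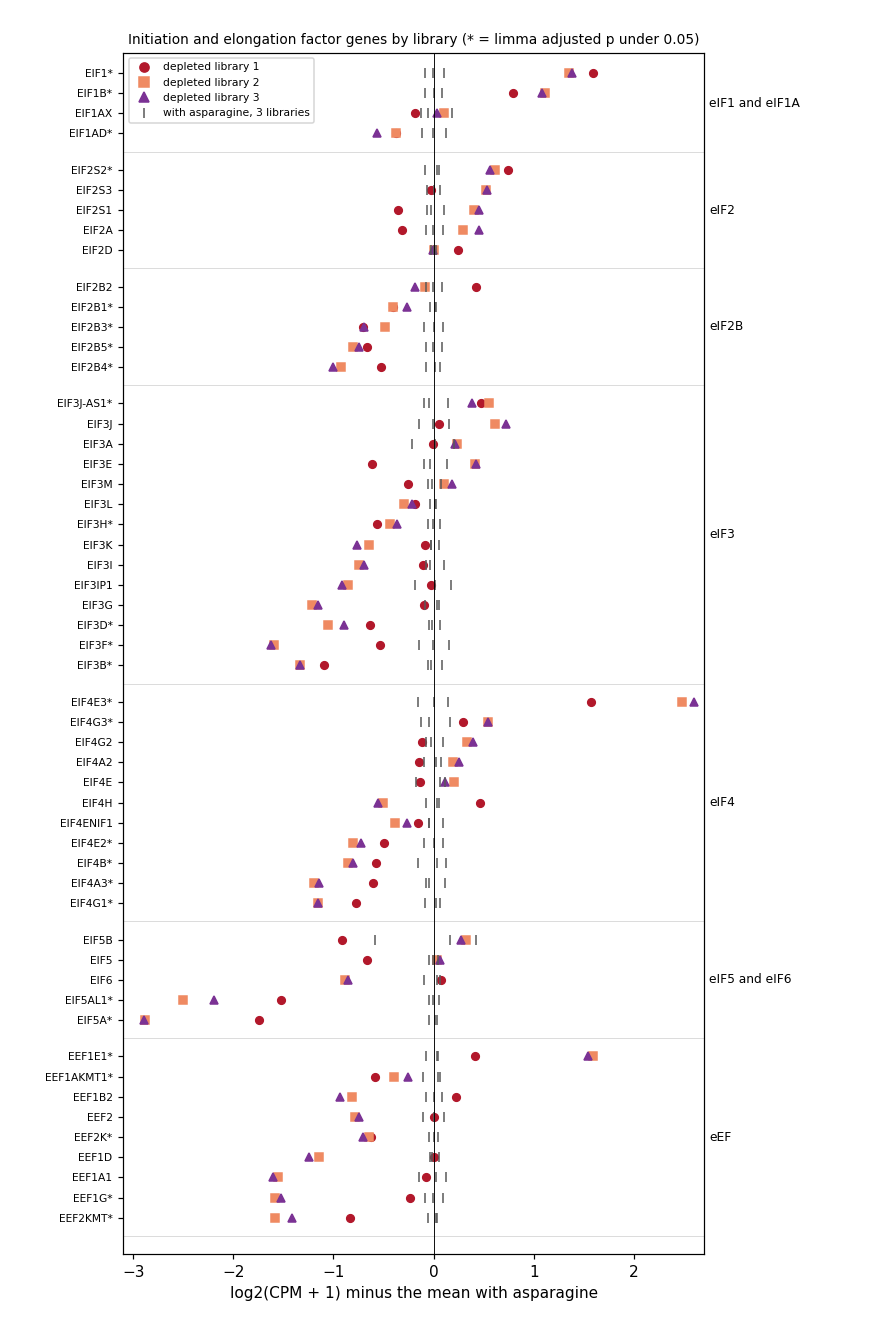
All 53 members in each depleted library, grouped by factor. The x axis is log2(CPM + 1) minus the mean with asparagine, colored symbols are the depleted libraries, grey ticks are the 3 libraries with asparagine, and an asterisk marks limma adjusted p under 0.05. EIF5A and EIF5AL1 lie farthest left and EIF4E3 farthest right, and the eEF1 and eEF2 genes split between depleted library 1 and the other two.

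The start-codon factors included the clearest increase of an abundant member. EIF1, which keeps the scanning ribosome open until the start codon is found (chromosome 17, 41688885 to 41692668), had 869, 738 and 752 CPM in depleted libraries 1, 2 and 3, against 286, 309 and 271 CPM with asparagine. Every depleted library lay above every library with asparagine. EIF1 was 2.72-fold higher, at 786 ± 71.9 CPM in depleted cells and 289 ± 19.2 CPM with asparagine (SD, n = 3 each), which is 1.44 on the log2 scale (SE 0.12, limma adjusted p = 0.000325). Its paralog EIF1B (chromosome 3, 40309684 to 40312424) had 61.7, 77.7 and 75.9 CPM in depleted cells, against 35.3, 37.4 and 33.3 CPM with asparagine. EIF1B was 2.03-fold higher without overlap (log2 fold change 0.99, SE 0.14, limma adjusted p = 0.0019), and an exon of the antisense gene EIF1B-AS1 overlaps it. After the GC correction the log2 fold changes were 1.24 for EIF1 and 0.59 for EIF1B. EIF1AX, the eIF1A gene, did not pass, with 83.1, 102 and 96.5 CPM in depleted cells and 90.9, 86.8 and 107 CPM with asparagine (95% interval of the log2 fold change -0.35 to 0.32). The GC-corrected EIF1AX value was -0.58 (limma adjusted p = 0.0125). EIF1AD, which shares a domain with eIF1A and has a role in making the small subunit, had 29.04, 29 and 25.3 CPM in depleted cells, against 34.9, 41.5 and 37.9 CPM with asparagine. It was lower by the test (log2 fold change -0.44, limma adjusted p = 0.0304), a call lost without any library other than depleted library 1 (limma adjusted p 0.0712 to 0.133) and after the GC correction (limma adjusted p = 0.179).

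The eIF2 trimer had 1 subunit that passed. EIF2S2, the beta subunit, had 89.6, 81.8 and 78.7 CPM in depleted cells, against 49.8, 54.5 and 55.1 CPM with asparagine. It was 1.57-fold higher without overlap (log2 fold change 0.64, SE 0.12, limma adjusted p = 0.00556). The GC-corrected EIF2S2 value was 0.37 (limma adjusted p = 0.0440), and the call was lost in 1 alternative (limma adjusted p = 0.0578). The alpha subunit EIF2S1, which carries the regulatory phosphorylation site, had 94.1, 160 and 165 CPM in depleted cells and 115, 118 and 129 CPM with asparagine. Depleted library 1 lay below all libraries with asparagine and depleted libraries 2 and 3 above them, and the call failed (limma adjusted p = 0.554). Its log2 fold change was 0.43 without depleted library 1 (limma adjusted p = 0.000439) and -0.39 after the GC correction (limma adjusted p = 0.0017). The gamma subunit EIF2S3, which binds GTP and the initiator tRNA, had 225, 329 and 333 CPM in depleted cells and 219, 239 and 230 CPM with asparagine (limma adjusted p = 0.135). Without depleted library 1 it was called higher, at 0.53 (limma adjusted p = 3.29e-05), while the corrected value was -0.11. EIF2D had 106, 90.0 and 89.3 CPM in depleted cells and 88.3, 91.6 and 90.2 CPM with asparagine, and the groups overlapped. EIF2A and EIF2D, factors outside the trimer that can deliver initiator tRNA by other routes, did not pass, at 0.14 and 0.08 on the log2 scale with all libraries. After the GC correction EIF2A was lower at -0.41 (limma adjusted p = 0.00325) and EIF2D higher at 0.20 (limma adjusted p = 0.00823). Without depleted library 1, EIF2A was higher at 0.38 (limma adjusted p = 0.00181).

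In eIF2B, the exchange factor, 4 of 5 subunits were lower and 0 higher (background 26.2% and 25.1%). The catalytic epsilon subunit EIF2B5 (chromosome 3, 184135038 to 184146112) had 94.5, 85.6 and 89.2 CPM in depleted cells, against 150, 159 and 142 CPM with asparagine, 1.68-fold lower (log2 fold change -0.74, SE 0.11, limma adjusted p = 0.00259). The delta subunit EIF2B4 had 51.9, 39.1 and 36.9 CPM in depleted cells, against 75.7, 78.7 and 71.1 CPM with asparagine (log2 fold change -0.82, limma adjusted p = 0.00638). The gamma subunit EIF2B3 had 21.5, 25.2 and 21.7 CPM in depleted cells, against 33.4, 38.1 and 35.8 CPM with asparagine, 1.57-fold lower (limma adjusted p = 0.00844, or 0.0502 without library 2 with asparagine). The groups did not overlap for these 3 genes, and all 3 were lower in every depleted library, including library 1. The alpha subunit EIF2B1 was lower by 0.36 (limma adjusted p = 0.0324), and its adjusted p ranged from 0.0608 to 0.131 when any library but depleted library 1 was left out. The beta subunit EIF2B2 had 48.2, 33.6 and 31.3 CPM in depleted cells and 35.4, 37.9 and 33.7 CPM with asparagine (limma adjusted p = 0.82). The median log2 fold change of the 5 genes was -0.63, and -0.51 after the GC correction.

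Of the 12 eIF3 subunit genes among the members, 4 were lower and 0 higher (background 26.2% and 25.1%). EIF3B, an RNA-recognition scaffold subunit (chromosome 7, 2354086 to 2380745), had 146, 124 and 123 CPM in depleted cells, against 300, 333 and 307 CPM with asparagine. This 2.39-fold difference (log2 fold change -1.25, SE 0.12, limma adjusted p = 0.000539) was of similar size in every depleted library. EIF3F had 78.8, 37.4 and 36.6 CPM in depleted cells and 114, 128 and 104 CPM with asparagine, or -1.25 on the log2 scale (SE 0.30, limma adjusted p = 0.0135). Depleted library 1 lay between the other depleted libraries and those with asparagine, and the limma adjusted p was 0.0507 without library 1 with asparagine and 0.0556 without library 2 with asparagine. EIF3D, the subunit that can bind the cap of some mRNAs, had 254, 190 and 212 CPM in depleted cells, against 390, 413 and 384 CPM with asparagine, 1.81-fold lower (limma adjusted p = 0.00293). EIF3H had 270, 296 and 310 CPM in depleted cells, against 385, 399 and 418 CPM with asparagine, 1.37-fold lower (limma adjusted p = 0.0133), and its adjusted p lay at 0.0512 to 0.0643 without depleted library 2, library 2 with asparagine or library 3 with asparagine.

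The other 8 eIF3 subunit genes did not pass with all libraries. EIF3G, EIF3I, EIF3K and EIF3L had no overlap between the groups and log2 fold changes of -0.82, -0.52, -0.50 and -0.23 (limma adjusted p from 0.0525 to 0.0898). For EIF3G, depleted library 1 had 305 CPM and depleted libraries 2 and 3 had 140 and 147 CPM, against 335, 339 and 308 CPM with asparagine. EIF3A, EIF3E, EIF3J and EIF3M had log2 fold changes from 0.01 to 0.46, and each was below 0 after the GC correction, with calls for EIF3E and for EIF3M (EIF3M at -0.61, limma adjusted p = 0.00989). EIF3E showed the widest split among them, with 176, 361 and 363 CPM in depleted cells, against 263, 252 and 297 CPM with asparagine. The corrected EIF3E value was -0.50 (limma adjusted p = 0.000526), and the value without depleted library 1 was 0.42 (limma adjusted p = 0.000587), so its direction differed between these settings. After the GC correction 10 of the 12 subunit genes were lower and 0 higher (background 34.3% and 35.2%). The noncoding gene EIF3J-AS1, antisense to EIF3J, had 17.9, 19.0 and 16.8 CPM in depleted cells, against 11.8, 14.1 and 12.2 CPM with asparagine (limma adjusted p = 0.0253, or 0.0517 to 0.112 without any library other than depleted library 1), and no strand setting is stated. The pseudogene EIF3IP1 did not pass (limma adjusted p = 0.0914), and it shares sequence with EIF3I, so its count is uncertain.

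The scaffold genes of the cap complex differed in direction. EIF4G1, the main scaffold of the cap complex (chromosome 3, 184314495 to 184335358), had 537, 411 and 411 CPM in depleted cells, against 933, 956 and 865 CPM with asparagine. It was 2.03-fold lower without overlap (log2 fold change -1.03, SE 0.14, limma adjusted p = 0.00164), and lower by 0.64 after the GC correction. Its paralog EIF4G3 had 119, 142 and 141 CPM in depleted cells, against 94.1, 89.0 and 109 CPM with asparagine (log2 fold change 0.46, limma adjusted p = 0.0297). The EIF4G3 call was lost without depleted library 2 or 3 or library 1 or 2 with asparagine (limma adjusted p 0.0977 to 0.126). EIF4G2, also known as DAP5, a scaffold without the cap-binding-protein site, had 937, 1278 and 1329 CPM in depleted cells and 965, 998 and 1084 CPM with asparagine (limma adjusted p = 0.301, or 0.000433 at a log2 fold change of 0.36 without depleted library 1).

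The cap-binding genes differed as well. EIF4E itself did not pass, with 18.8, 24.0 and 22.6 CPM in depleted cells and 21.8, 18.3 and 22.5 CPM with asparagine (95% interval of the log2 fold change -0.31 to 0.43). EIF4E was lower once corrected for GC content, at -0.34 (limma adjusted p = 0.0173). EIF4E2, also called 4EHP, which binds caps and represses translation, had 61.3, 49.3 and 52.1 CPM in depleted cells, against 80.9, 87.0 and 92.5 CPM with asparagine (log2 fold change -0.67, SE 0.13, limma adjusted p = 0.007). EIF4E3, an atypical cap-binding protein (chromosome 3, 71675416 to 71754773), was expressed at a low level with asparagine. It had 3.61, 7.69 and 8.42 CPM in depleted cells, against 0.562, 0.717 and 0.399 CPM with asparagine, 11.8-fold higher in CPM (log2 fold change 2.22, SE 0.28, limma adjusted p = 0.00133). That change rested on 20 to 314 reads per library, and an exon of GPR27 overlaps EIF4E3 on the other strand and an exon of AC097634.4 on the same strand. EIF4E3 passed the filter of 1 CPM only through the depleted libraries, so a difference was built into its being tested, and neither its call nor its stability is independent support.

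Among the helicases and their helpers, EIF4A2 did not pass, with 304, 384 and 403 CPM in depleted cells and 315, 354 and 343 CPM with asparagine (limma adjusted p = 0.568, or 0.0133 at a log2 fold change of 0.22 without depleted library 1). EIF4A1 was not analysed here. EIF4B, which stimulates the eIF4A helicase, was 1.68-fold lower at 167, 138 and 143 CPM in depleted cells, against 224, 256 and 272 CPM with asparagine (limma adjusted p = 0.00475). EIF4H, a related helper, had 803, 409 and 395 CPM in depleted cells and 550, 602 and 593 CPM with asparagine, so that depleted library 1 lay above and depleted libraries 2 and 3 below all libraries with asparagine (limma adjusted p = 0.558, or 2.74e-05 at a log2 fold change of -0.53 without depleted library 1). EIF4A3, which works in the exon junction complex rather than in initiation, had 133, 87.6 and 91.0 CPM in depleted cells, against 192, 219 and 196 CPM with asparagine, 1.95-fold lower (log2 fold change -0.98, limma adjusted p = 0.0054). EIF4ENIF1, the eIF4E transporter gene, had a log2 fold change of -0.27 (limma adjusted p = 0.114), with limma adjusted p = 0.0186 after the GC correction and 0.00610 without depleted library 1.

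**Figure D3:**
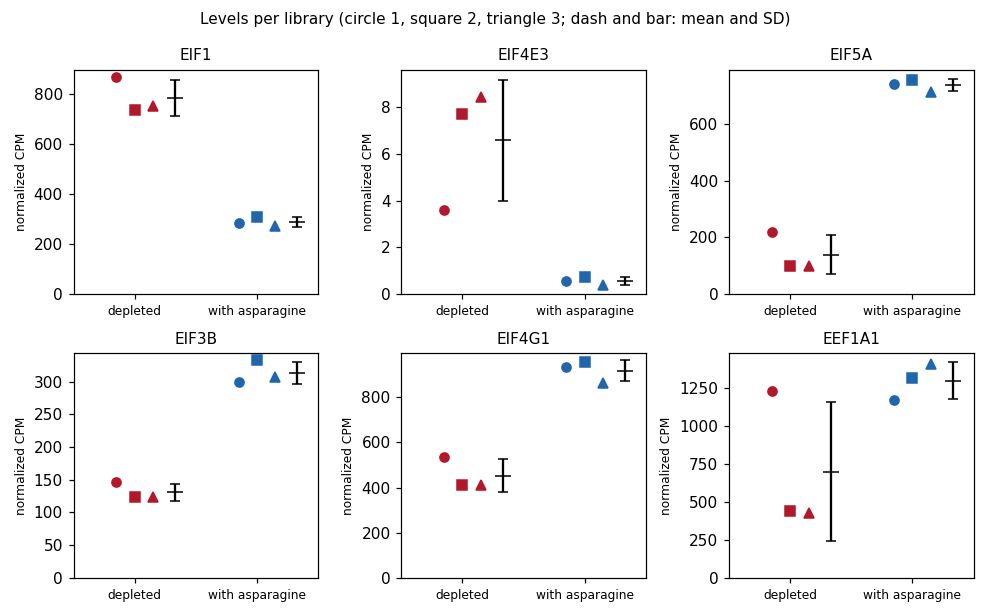
Normalized CPM of 6 members in each library, depleted cells on the left and cells with asparagine on the right of each panel. Circles, squares and triangles are libraries 1, 2 and 3, and the dash with bar is the mean and SD over 3 libraries. EIF1 at 738 to 869 CPM and EIF4E3 at 3.61 to 8.42 CPM lie above, and EIF5A, EIF3B and EIF4G1 below, all libraries with asparagine, whereas EEF1A1 in depleted library 1 (1228 CPM) lies among the libraries with asparagine.

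Ratios of related factors within each library do not depend on a scaling factor common to all genes of a library, but they do depend on the GC correction. The log2 ratio of EIF4G1 to EIF4G3 was 2.17, 1.53 and 1.53 in depleted cells, against 3.30, 3.41 and 2.98 with asparagine, a difference of -1.49, or -0.96 after the GC correction. The log2 ratio of EIF4E to EIF4E2 was -1.66, -1.01 and -1.17 in depleted cells, against -1.84, -2.19 and -1.99 with asparagine, a difference of 0.73, or 0.31 after the GC correction. The log2 ratio of EIF1 to EIF1B was 3.79, 3.23 and 3.29 in depleted cells, against 2.98, 3.01 and 2.99 with asparagine, a difference of 0.45, or 0.27 without depleted library 1. The groups did not overlap for any of the 3 pairs. A two-sided exact permutation test gave p = 0.1 for each, which is the smallest that 3 against 3 libraries allow, and 0.1 after adjustment over the 3 pairs.

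**Figure D4:**
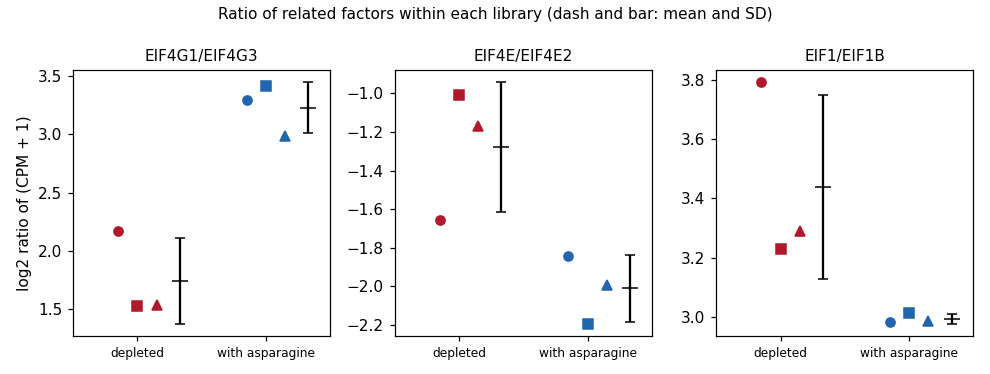
Log2 ratio of (CPM + 1) of 3 pairs of related factors in each library, depleted cells on the left and cells with asparagine on the right of each panel. Symbols are libraries 1, 2 and 3, and the dash with bar is the mean and SD. The EIF4G1 to EIF4G3 ratio is lower in all 3 depleted libraries (1.53 to 2.17, against 2.98 to 3.41 with asparagine), and the other ratios are higher.

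The largest decrease among the members was in EIF5A, which encodes the factor that helps the ribosome form difficult peptide bonds and is the known bearer of the amino acid hypusine (chromosome 17, 7306999 to 7312463). EIF5A had 220, 98.8 and 98.7 CPM in depleted cells, against 742, 757 and 715 CPM with asparagine. It was 5.31-fold lower, at 139 ± 69.8 CPM in depleted cells and 738 ± 21.3 CPM with asparagine (SD, n = 3 each), which is -2.51 on the log2 scale (SE 0.31, limma adjusted p = 0.00118) and -2.12 after the GC correction. EIF5AL1, a near-identical copy of EIF5A on chromosome 10, had 28.2, 13.9 and 17.3 CPM in depleted cells, against 82.6, 86.2 and 80.7 CPM with asparagine. Reads of these genes cannot be cleanly separated, so EIF5AL1 is not a separate observation. Both were lower in every depleted library, depleted library 1 least.

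EIF5, EIF5B and EIF6, which act on start-codon recognition and subunit joining, did not pass with all libraries. EIF5, which activates the GTPase of eIF2, had 187, 305 and 310 CPM in depleted cells and 288, 297 and 308 CPM with asparagine (limma adjusted p = 0.466). EIF5B, the GTPase of subunit joining, had 47.3, 113 and 109 CPM in depleted cells and 101, 59.6 and 121 CPM with asparagine (limma adjusted p = 0.837), so it varied within both groups. EIF5B was lower once corrected for GC content, at -0.68 (limma adjusted p = 0.0134). EIF6, which keeps the large subunit from joining too early, had 228, 117 and 119 CPM in depleted cells and 226, 222 and 203 CPM with asparagine (limma adjusted p = 0.114, or 1.84e-06 without depleted library 1). The EIF6 change was -0.06 after the GC correction (limma adjusted p = 0.548).

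The core elongation factors split by library. EEF1A1, which carries aminoacyl-tRNA to the ribosome (chromosome 6, 73515750 to 73523797), had 1228, 441 and 425 CPM in depleted cells, against 1168, 1311 and 1408 CPM with asparagine. Depleted library 1 lay among the libraries with asparagine and depleted libraries 2 and 3 far below them. The call failed with all libraries (log2 fold change -1.07, 95% interval -2.01 to -0.13, limma adjusted p = 0.0575), and the log2 fold change was -1.57 without depleted library 1 (limma adjusted p = 5.94e-08). The GC-corrected EEF1A1 value was -1.18 (limma adjusted p = 0.033). EEF1A1 is known for many processed pseudogenes, whose shared sequence makes its reads uncertain.

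The subunits that recharge eEF1A were also split between depleted library 1 and depleted libraries 2 and 3. Against the range with asparagine, depleted library 1 lay below it for EEF1G, within it for EEF1D and above it for EEF1B2. EEF1G had 430, 169 and 176 CPM in depleted cells, against 476, 543 and 504 CPM with asparagine, and it was the only core elongation factor gene of 5 called with all libraries (log2 fold change -1.11, limma adjusted p = 0.0347, or 0.0825 to 0.109 without any library other than depleted library 1). EEF1D had 611, 275 and 256 CPM in depleted cells and 601, 632 and 592 CPM with asparagine (limma adjusted p = 0.075). EEF1B2 had 342, 166 and 153 CPM in depleted cells and 276, 308 and 292 CPM with asparagine (limma adjusted p = 0.19). EEF2, the translocase, had the highest level per kb of merged coding-transcript exons among the members, at 968 CPM per kb in depleted cells and 1336 CPM per kb with asparagine. EEF2 had 4235, 2443 and 2508 CPM in depleted cells and 4519, 4228 and 3930 CPM with asparagine (limma adjusted p = 0.0882, or 1.71e-06 at a log2 fold change of -0.77 without depleted library 1). The median log2 change of these 5 genes was 0.01 in depleted library 1, -1.14 in depleted library 2 and -1.25 in depleted library 3. When depleted library 1 was left out, 5 of 5 were called lower (background 41.3% lower, or 81.8% in either direction). Whether the split comes from the cells or from the libraries was not tested.

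3 genes that modify or regulate elongation factors were lower, without overlap between the groups. EEF2K, the kinase that inactivates eEF2, had 83.3, 81.8 and 78.9 CPM in depleted cells, against 133, 129 and 124 CPM with asparagine (log2 fold change -0.66, SE 0.11, limma adjusted p = 0.00323). EEF2KMT, a methyltransferase of eEF2, had 10.7, 5.98 and 6.81 CPM in depleted cells, against 20.2, 20.3 and 19.1 CPM with asparagine (log2 fold change -1.28, SE 0.21, limma adjusted p = 0.00323). EEF1AKMT1, a methyltransferase of eEF1A, was close to the threshold at -0.41 (limma adjusted p = 0.0489), and passed in only 1 of 6 fits that left out a library, the fit without depleted library 1. EEF1E1, whose product is a component of the multi-tRNA synthetase complex, was higher, with 18.9, 44.1 and 42.5 CPM in depleted cells, against 14.5, 13.2 and 14.3 CPM with asparagine. It was 2.51-fold higher (log2 fold change 1.18, SE 0.32, limma adjusted p = 0.0203), at 0.66 after the GC correction (limma adjusted p = 0.00301), and the adjusted p was 0.0560 to 0.0711 without any library other than depleted library 1. EEF1E1 shares exons with a readthrough transcript into BLOC1S5.

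**Figure D5:**
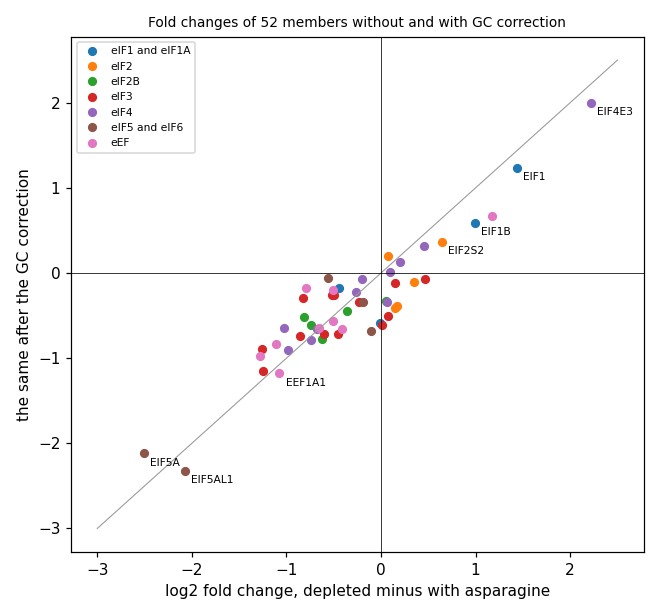
Log2 fold change (depleted minus with asparagine) of 52 members as fitted (x axis) and after the GC correction (y axis), colored by factor group, with the line of equal values in grey. EIF5A, EIF5AL1, EIF1 and EIF4E3 keep their place far from 0, and EIF2D lies above 0 on both axes. EIF2S1, EIF2S3, EIF2A, EIF2B2, EIF3A, EIF3E, EIF3J, EIF3M and EIF4E lie right of 0 on the x axis and below 0 on the y axis.

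Related translation genes outside the members were counted from a list of 48 (kinases, inhibitors, modifying enzymes, release and mitochondrial factors), of which 47 were in the table. Of these, 9 were higher and 11 lower (background 25.1% and 26.2%), with a median log2 fold change of -0.04. Without depleted library 1, 18 were higher and 16 lower (background 40.5% and 41.3%), and after the GC correction 10 were higher and 19 lower (background 35.2% and 34.3%) with a median of -0.19. PPP1R15A, the GADD34 subunit that directs a phosphatase to eIF2, had 573, 404 and 408 CPM in depleted cells, against 26.8, 26.9 and 22.7 CPM with asparagine, 18.1-fold higher (log2 fold change 4.11, SE 0.17, limma adjusted p = 4.35e-05). PDCD4, an inhibitor of the eIF4A helicase, had 95.0, 134 and 143 CPM in depleted cells, against 43.5, 40.9 and 47.9 CPM with asparagine (log2 fold change 1.45, SE 0.18, limma adjusted p = 0.00126). With the GC correction the log2 fold changes were 4.53 for PPP1R15A and 0.86 for PDCD4. Both genes were above all libraries with asparagine in every depleted library.

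Of the 8 hypusine and diphthamide genes, whose enzymes modify eIF5A and eEF2, 5 were lower and 2 higher (background 26.2% and 25.1%). After the GC correction 3 were lower and 1 higher (background 34.3% and 35.2%). DHPS, which starts the making of hypusine on eIF5A, had 99.3, 60.7 and 58.9 CPM in depleted cells, against 146, 147 and 132 CPM with asparagine (log2 fold change -0.99, limma adjusted p = 0.00937). DOHH, which completes it, had 47.3, 22.5 and 17.4 CPM in depleted cells, against 56.6, 58.3 and 48.0 CPM with asparagine (limma adjusted p = 0.046, or 0.124 after the GC correction, with a range of 2.79e-06 to 0.142 over its alternatives). DPH2, of diphthamide synthesis on eEF2, had 50.6, 37.7 and 37.8 CPM in depleted cells, against 120, 116 and 102 CPM with asparagine, 2.68-fold lower (limma adjusted p = 0.000897). DPH3 of the same pathway had 28.4, 42.8 and 49.4 CPM in depleted cells, against 17.2, 16.3 and 19.6 CPM with asparagine, 2.27-fold higher (limma adjusted p = 0.00664). The log2 fold changes of DPH2 and DPH3 were -1.41 and 1.11, and -1.02 and 0.53 after the GC correction. Both genes lay outside the range with asparagine in every depleted library, on opposite sides of it.

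Of 9 mitochondrial translation factor genes, 3 were lower (TUFM, TSFM and MTIF3) and 0 higher (background 26.2% and 25.1%), and MTIF3 did not pass in every alternative. Without depleted library 1, 3 were lower and 3 higher (background 41.3% and 40.5%). After the GC correction 5 were lower and 1 higher (background 34.3% and 35.2%). TUFM, the mitochondrial counterpart of eEF1A, had 234, 150 and 146 CPM in depleted cells, against 483, 478 and 423 CPM with asparagine (log2 fold change -1.41, SE 0.20, limma adjusted p = 0.00193). TSFM, its exchange factor, had 26.0, 23.2 and 19.5 CPM in depleted cells, against 59.3, 68.0 and 63.5 CPM with asparagine (log2 fold change -1.44, SE 0.15, limma adjusted p = 0.000671). Unlike EEF1A1, TUFM was below all libraries with asparagine in depleted library 1 as well. The release and rescue factor genes had 0 of 5 called with limma, and 1 of 5 at an unadjusted p under 0.05 (PELO). After the GC correction 3 of 5 were lower (ETF1, GSPT1 and PELO), and without depleted library 1, 1 was higher and 1 lower, against the same backgrounds.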

How the data were processed

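Reads were processed by the authors with FastQC, STAR and featureCounts (Subread) on GRCh38, per the submitters' processing notes. The sources used here do not state tool versions, annotation, strand setting or scaling. The authors deposited 1 table of normalized CPM, that is, signal scaled for depth. In each column the values were multiples of a single step (100% within 1e-06 of a read), which gave the reads behind each value, and 3 reads equal 0.0598 to 0.0920 CPM.

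Values were analysed as log2(CPM + 1) in R 4.3.3 with limma 3.58.1 (group as the only term, intensity trend, two-sided, Benjamini-Hochberg over the 11892 genes at 1 CPM or more in 3 or more libraries, threshold 0.05). Fold values are ratios of mean CPM, and log2 fold changes are depleted minus with asparagine and understate changes of low genes. "Higher" and "lower" are relative to the deposited scaling. GC content came from GENCODE 29 transcripts, and the GC correction removed a lowess trend (span 0.3) from each library. Antisense exons overlap 23 members. The members and lists were chosen with earlier results of these data known. Genes named with every library's value were the extremes of each complex, the paralog pairs, the 10 largest changes and related genes changed by at least 1 on the log2 scale; others were chosen after their values were seen. The fit was checked on simulated data with independent noise for each gene and library. These data held neither the GC trend nor the difference of depleted library 1, so the check does not cover them. 1 gene of the B-cell precursor marker list is not reported here.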

Additional observations from a re-analysis of the deposited data

How the results depend on the processing

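Leaving out 1 library gave 4 to 14 members higher and 12 to 31 lower, and 1728 to 4812 of all genes higher and 1814 to 4913 lower, each highest without depleted library 1. The GC correction without depleted library 1 gave 8 members higher and 40 lower (4486 and 4390 of all genes). A threshold of 0.01 gave 4 members higher and 13 lower (1612 and 1703 of all genes), and the GC correction gave 32 members lower. The median of the members was -0.25 under quantile normalization and -0.18 without depleted libraries 2 and 3. Settings chosen after seeing the data were voom, leaving out depleted libraries 2 and 3, genes with a GC value alone, and the GC correction without depleted library 1.

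Only members without a call changed sign in the alternatives used for single members, and the cause was not tested. The fit without depleted libraries 2 and 3 is not among these alternatives. In depleted library 1 itself some further members without a call had the other sign. Examples are EEF1B2 (0.23, against -0.51 with all libraries) and EIF6 (0.073, against -0.56). With the GC correction, with or without the replicate block, values were -0.41 for EIF2A, -0.33 for EIF2B2, -0.39 for EIF2S1, -0.11 for EIF2S3, -0.12 for EIF3A, -0.50 for EIF3E, -0.065 for EIF3J, -0.61 for EIF3M and -0.34 for EIF4E. Without depleted library 1 as well, they were -0.44 for EIF2A, -0.68 for EIF2B2, -0.40 for EIF2S1, -0.13 for EIF2S3, -0.15 for EIF3A, -0.44 for EIF3E, -0.11 for EIF3J, -0.79 for EIF3M and -0.42 for EIF4E. EIF1AX was at 0.021 with trimmed mean rescaling and 0.068 under quantile normalization, where EIF4E was at -0.011 and EIF4H at 0.021. Leaving out 1 library spanned 0 for EIF1AX (-0.077 to 0.074), EIF2A (-0.012 to 0.38), EIF2B2 (-0.13 to 0.17), EIF2D (-0.0052 to 0.12), EIF3E (-0.10 to 0.42), EIF3M (-0.075 to 0.14), EIF4E (-0.030 to 0.16), EIF5 (-0.31 to 0.050) and EIF5B (-0.40 to 0.30). The paralog ratios kept their sign in the alternatives run, at 0.27 to 0.65 for EIF1/EIF1B, 0.30 to 0.92 for EIF4E/EIF4E2 and -1.70 to -0.96 for EIF4G1/EIF4G3.

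Deviations of same-numbered libraries correlated at 0.083, -0.65 and 0.69 for numbers 1, 2 and 3. Of the depleted libraries only library 3 correlated best with its own number. Deviations from the mean of 3 libraries depend on each other, so these values cannot tell whether libraries with the same number were made together. With that number as a replicate block, 5 members were higher and 18 lower (2824 and 2989 of all genes). The count models planned, edgeR and DESeq2, were not run. In their place, voom on the recovered reads gave 7 members higher and 19 lower.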
